A study of Oryza sativa with 24 samples.

Results

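The 70 rice genes described here are those whose symbol or synonym in the gene table names an Aux/IAA (IAA plus a number), an auxin response factor (ARF), a SAUR, a GH3 or a PIN gene. They comprise 28 Aux/IAA genes, 23 ARF genes, 1 SAUR gene, 9 GH3 genes and 9 PIN genes, and no gene carried the name AUX1. Of these genes, 58 were represented on the array by at least 1 probe set that the platform table assigns to a single gene, giving 72 of the 57258 probe sets tested. The 72 probe sets comprise 34 of Aux/IAA genes, 20 of ARF genes, 1 of SAUR39, 11 of GH3 genes and 6 of PIN genes, and 11 genes had more than 1 probe set. The remaining 12 genes (ARF5, ARF6, ARF8, ARF19, ARF21, ARF25, IAA11, IAA29, PIN1A, PIN1B, PIN1C and PIN5B) had no such probe set and are named only.

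Auxin moves from cell to cell through efflux carriers of the PIN family and is perceived by receptors that mark the Aux/IAA repressors for degradation. This frees the ARF transcription factors, which bind promoters of auxin-responsive genes. Several GH3 enzymes attach amino acids to auxin and so lower the free hormone, and SAUR genes are a family of early auxin-responsive genes. In roots, auxin guides gravitropism and the formation of lateral and crown roots, which change when phosphate (Pi) is scarce.

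Transcripts were measured on 24 arrays, with 3 biological replicates in each of 8 groups. The groups were roots and shoots of Dular, a traditional rice that tolerates low Pi, and of PB1 (Pusa Basmati-1), a modern variety that is sensitive to it, each grown for 15 days in nutrient solution with 320 µM Pi (+Pi) or 1 µM Pi (−Pi). Apart from Pi the solution was the same for all groups, and the tissue of 3 seedlings was combined for each RNA sample. The tissue was taken from the sample titles, since another label calls every sample a seedling. On values centred on each probe set's median, replicate arrays of a group had a mean r of 0.889 to 0.953, except PB1 shoots at −Pi, with 0.695. Results on those shoots therefore rest on the most uneven arrays. An r of centred values cannot be set against one of uncentred signals. Root markers such as LSI1, a silicon channel, were called higher in root than in shoot for 9 or 10 of 10 probe sets in each genotype and Pi level, and green leaf markers such as RCA, rubisco activase, lower for 7 or 8 of 11. The Pi starvation genes (SPX1, SPX2, SPX3, SPX5, PT6 and MGD2) rose at −Pi for 7 of 7 probe sets in the roots of both genotypes and in PB1 shoots, and for 6 of 7 in Dular shoots.

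Values are log2 signals relative to the median of the same probe set over the 24 arrays, so that 0 is that median and levels of different genes cannot be compared. Calls required an adjusted p (limma, Benjamini-Hochberg over all probe sets) no higher than 0.05 together with 2-fold or more. For the difference between the Pi responses of the genotypes, the adjusted p decided by itself. A change is given on the log2 scale with its standard error (SE), which rests on 1 spread per probe set over all groups of 3 arrays. A bulk sample cannot tell fewer cells of a type from less RNA per cell.

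Few auxin genes passed the test for Pi, and in roots PIN9 rose and SAUR39 fell at −Pi in both genotypes. In Dular roots, 6 of 72 probe sets rose (8.33%, against 4.12% of all probe sets) and 3 fell (4.17%, against 3.44%). The genes that rose were PIN9, IAA8, ARF23, IAA3 and ARF24, and those that fell were IAA2, PIN5C and SAUR39. In PB1 roots, 3 of 72 rose (4.17%, against 2.55% of all), which were PIN9, GH3.8 and GH3.5, and 2 fell (2.78%, against 2.25%), which were SAUR39 and IAA25. No other auxin probe set was called in the same direction in the roots of both. In Dular shoots, PIN5A and IAA23 rose (2.78%, against 1.16%) and PIN5C fell (1.39%, against 1.18%). In PB1 shoots, no auxin probe set rose (0 of 72, against 0.603% of all) and SAUR39 fell (1.39%, against 0.564%). By the adjusted p alone, 4 of 72 were higher in PB1 shoots, against 1.77% of all. Of all probe sets, 24412 of 57258 were flat, spanning less than 0.5 on the log2 scale over the 24 arrays, as were 4 of the 72. Among probe sets that were not flat, 7.18% rose and 6.0% fell in Dular roots, so the share of auxin probe sets called was near the background there. The median log2(−Pi/+Pi) of the 72 probe sets was 0.21 in Dular roots and 0.09 in Dular shoots, and 0.10 and 0.09 in the same tissues of PB1, and the median over all probe sets lay between -0.01 and 0.03.

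Among the PIN carriers, PIN9 had the strongest rise at −Pi. PIN9, also listed as OsPIN5, is a monocot-specific PIN. In Dular roots its values were 1.06, 1.57 and -0.29 at +Pi and 3.46, 4.23 and 3.86 at −Pi. In PB1 roots they were 1.34, 2.35 and 1.20 at +Pi and 4.70, 4.50 and 4.49 at −Pi. The +Pi and −Pi arrays did not overlap in either genotype. PIN9 rose by 3.07 (SE 0.37, 8.39-fold, adjusted p = 7.01e-06) in Dular roots and by 2.93 (SE 0.37, 7.64-fold, adjusted p = 2.7e-05) in PB1 roots. These responses differed between the genotypes by 0.14 (SE 0.52, adjusted p = 0.877), which does not show that they were equal. In shoots, 10 of the 12 values lay between -0.79 and -0.59, and the others were 0.29 and -0.36 in PB1 at −Pi. The shoot response was 0.02 (adjusted p = 0.983) in Dular and 0.42 (adjusted p = 0.52) in PB1. Root therefore exceeded shoot more at −Pi than at +Pi, with a root minus shoot difference of 1.44 and 4.49 in Dular and of 2.29 and 4.80 in PB1, each of which was called.

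**Figure D1:**
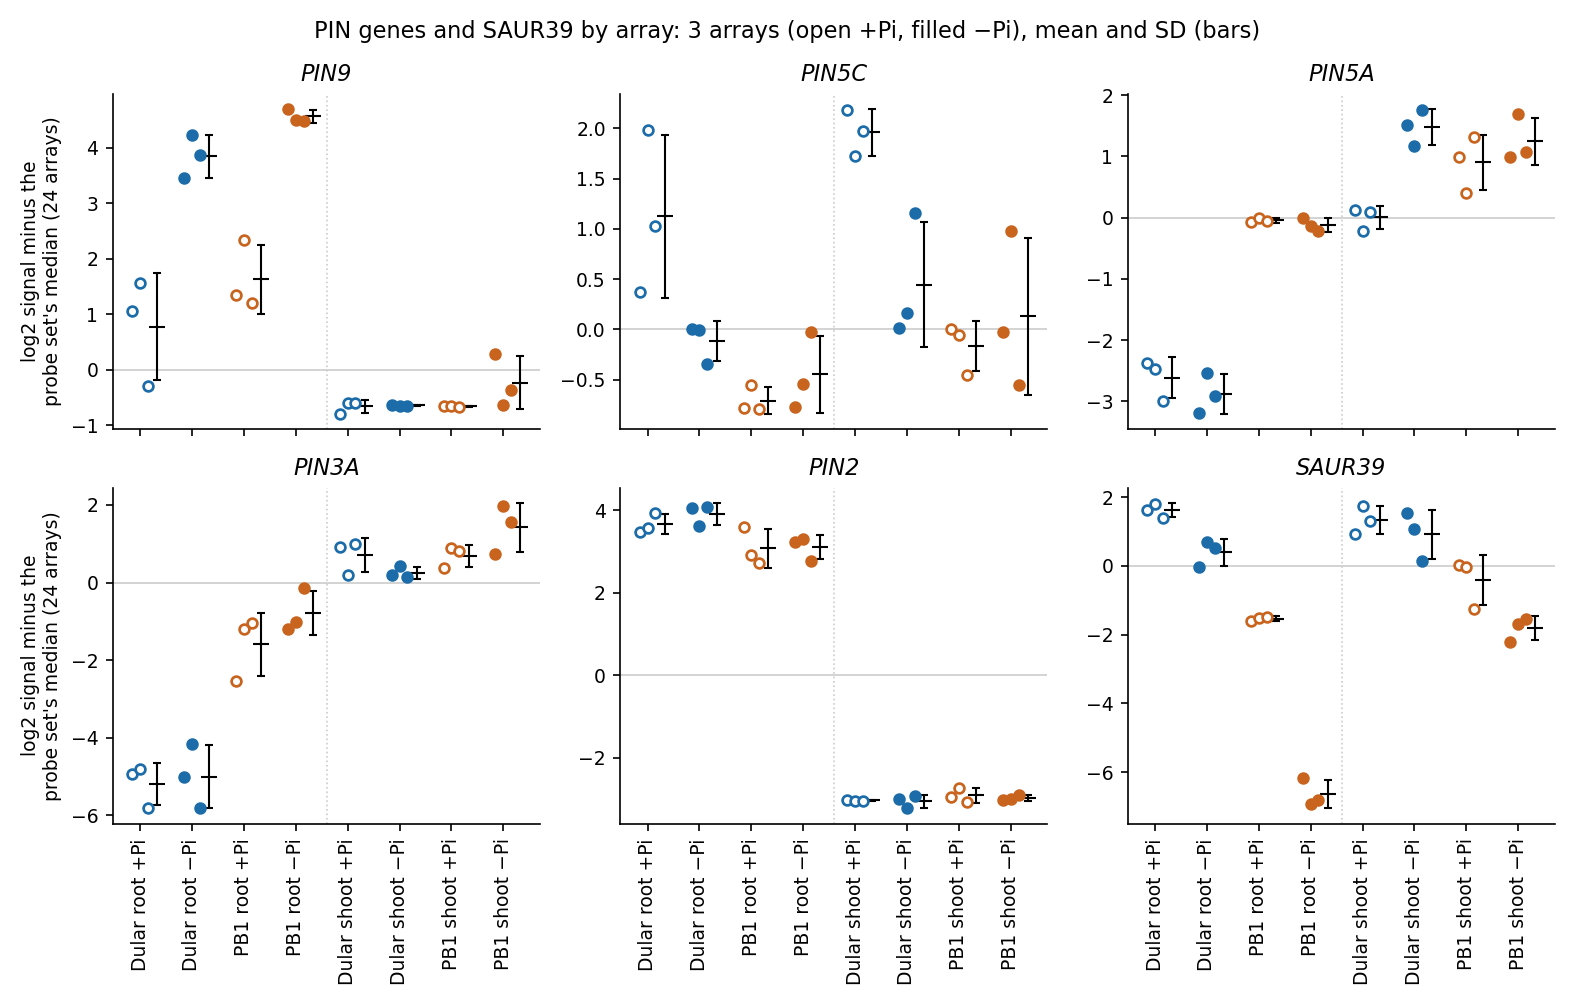
Log2 signal of each of 5 PIN genes and SAUR39, relative to the probe set's median, on the 3 arrays of each of the 8 groups (open circles +Pi, filled circles −Pi, blue Dular, orange PB1; bars are the mean and SD). PIN9 was high in roots at −Pi in both genotypes, and SAUR39 in PB1 roots at −Pi lay between -6.94 and -6.17, below every other group.

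PIN5C fell at −Pi in the roots and shoots of Dular and was not called in PB1. PIN5-type carriers sit, in Arabidopsis, in the endoplasmic reticulum and move auxin within the cell. PIN5C, for which the gene table also gives the names OsPIN4 and OsPIN5b, had values of 0.37, 1.98 and 1.03 in Dular roots at +Pi and of 0.01, -0.00 and -0.35 at −Pi. In Dular shoots it had 2.19, 1.72 and 1.98 at +Pi and 0.02, 0.17 and 1.15 at −Pi. All PB1 values but 1 lay between -0.79 and 0.00, the other being 0.98 on a PB1 shoot array at −Pi. The arrays of the Pi levels did not overlap in Dular, where the fall was 1.24 (SE 0.40, adjusted p = 0.0359) in roots and by 1.52 (SE 0.40, adjusted p = 0.024) in shoots. The root call was lost without any 1 array except Dular root +Pi replicate 1 (adjusted p 0.066 to 0.215, log2 -1.30 to -0.81 over the 5 fits), and the shoot call without any 1 of Dular shoot +Pi replicates 1 and 3 and −Pi replicates 1 and 2 (adjusted p 0.0692 to 0.102) or with shoot arrays alone (adjusted p = 0.0846). In PB1 it changed by 0.26 in roots (adjusted p = 0.658) and by 0.30 in shoots (adjusted p = 0.66). The difference between the genotypes' responses, -1.50 in roots (SE 0.56, adjusted p = 0.0897) and -1.81 in shoots (SE 0.56, adjusted p = 0.0959), was not called. It was called in roots without Dular root +Pi replicate 1 (-1.88, adjusted p = 0.0367) and in shoots without PB1 shoot −Pi replicate 3 (-2.16, adjusted p = 0.0468).

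PIN5A, also listed as OsPIN6, gave the clearest shoot response among the carriers. Its values in Dular shoots were 0.13, -0.22 and 0.10 at +Pi and 1.51, 1.17 and 1.76 at −Pi, with no overlap. It rose by 1.48 there (SE 0.24, 2.79-fold, adjusted p = 0.000804) and changed by 0.35 (adjusted p = 0.489) in PB1 shoots, where the +Pi values of 0.98, 0.41 and 1.31 were already above those of Dular. The responses of the shoots differed by 1.13 (SE 0.34, adjusted p = 0.0824), which was not called. It was called without PB1 shoot +Pi replicate 2 (1.38, adjusted p = 0.0304), without PB1 shoot −Pi replicate 2 (1.35, adjusted p = 0.0359) and after quantile normalization (1.34, adjusted p = 0.0317). In roots PIN5A did not pass the test for Pi in Dular (-0.26) or PB1 (-0.08).

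PIN2, the carrier that moves auxin through the root tip during gravitropism, marked the tissue and not the Pi level. Its 12 root values lay between 2.72 and 4.08 and its 12 shoot values between -3.22 and -2.72. The root minus shoot difference was 6.69 in Dular and 5.99 in PB1 at +Pi, and 6.96 and 6.08 at −Pi, the largest of all auxin probe sets in each comparison. Its Pi response was 0.25, 0.03, -0.02 and -0.06 in Dular roots, PB1 roots, Dular shoots and PB1 shoots, and none was called. PIN3A, also known as OsPIN3t and linked in rice to polar auxin transport and drought response, did not pass the test for Pi either (0.19, 0.82, -0.46 and 0.73 in the same order). Its other probe set gave -1.32 in Dular roots (adjusted p = 0.059) and -1.04 in Dular shoots (adjusted p = 0.147), neither called.

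The ARF genes leaned towards higher signal at −Pi, mostly by less than 2-fold. In Dular roots, 19 of 20 ARF probe sets were above 0, with a median of 0.52, a lowest value of -0.01 and a highest of 1.34. By the adjusted p alone, 11 of 20 were higher and none lower, where 8.75% of all probe sets were higher and 9.54% lower. With 2-fold, 3 of 20 rose (4.12% of all) and none fell (3.44% of all). In PB1 roots, 16 of 20 were above 0, with a median of 0.36, and 8 were higher and 1 lower by the adjusted p (5.57% and 9.82% of all). In Dular shoots, 19 of 20 were above 0, with a median of 0.32, and 7 were higher and none lower (3.93% and 3.81% of all). In PB1 shoots the median was 0.09, and 3 were higher and none lower (1.77% and 2.93% of all). In the last 3 comparisons no ARF passed 2-fold. The ARF medians kept their sign when arrays were centred on their median or quantile normalized, with 0.54 and 0.42 in Dular roots.

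**Figure D2:**
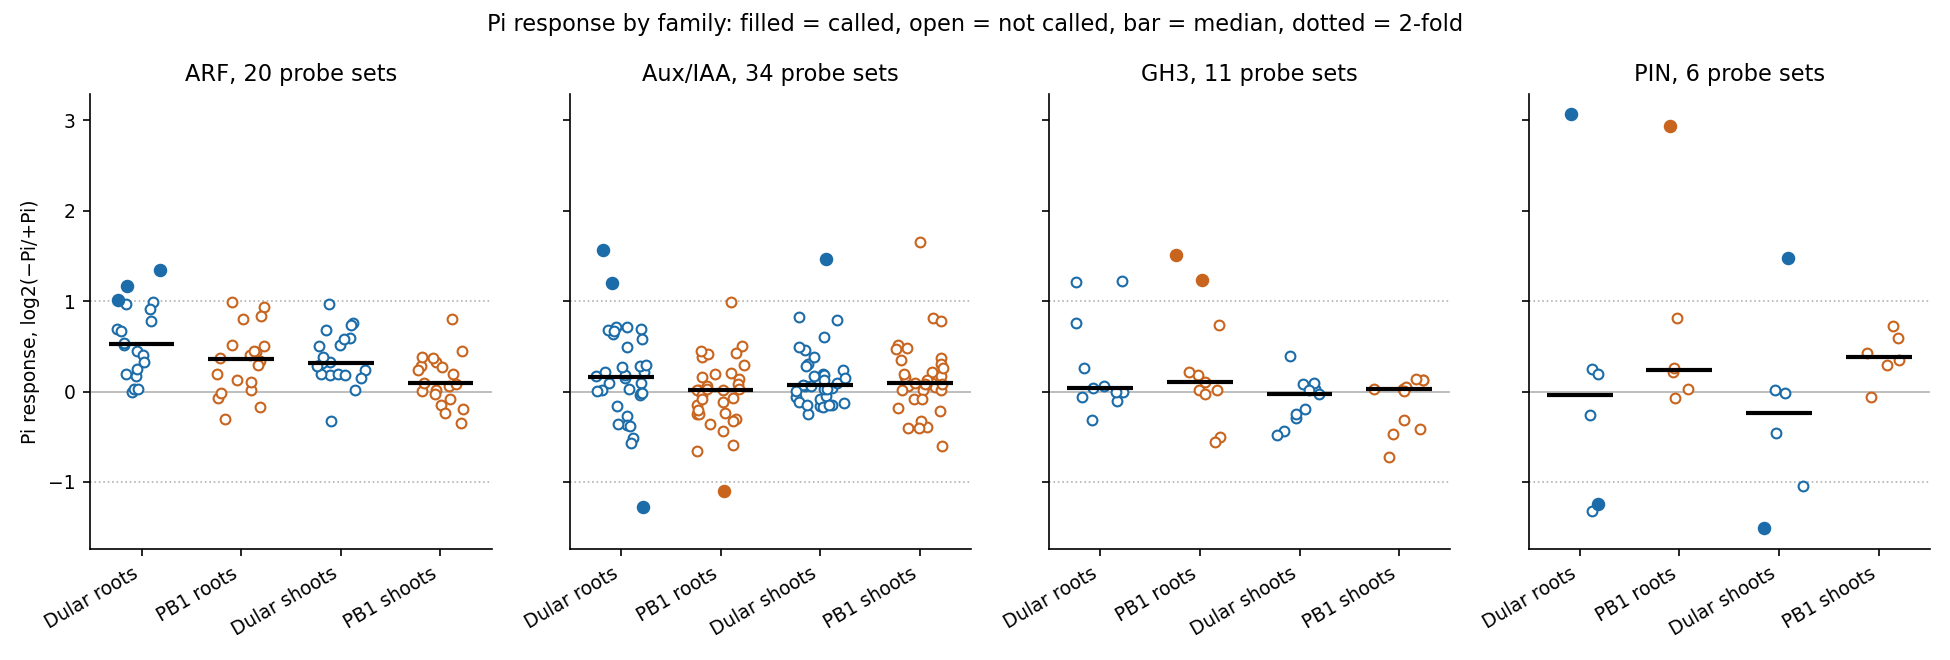
Pi response, log2(−Pi/+Pi), of every probe set of the ARF, Aux/IAA, GH3 and PIN genes in roots and shoots of Dular (blue) and PB1 (orange). Filled points were called, black bars are medians and dotted lines mark 2-fold. The ARF points lie mostly above 0 in Dular roots (median 0.52), and the Aux/IAA points scatter about 0 (median 0.16).

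ARF23 and ARF24 were the ARF genes called in Dular roots. In rice these factors act together on RMD, a formin gene that ties auxin to the actin cytoskeleton. ARF23, also called OsARF1, had values of -0.93, -0.98 and -1.20 at +Pi and 0.39, 0.17 and 0.36 at −Pi in Dular roots. It rose by 1.34 (SE 0.15, 2.53-fold, adjusted p = 4.18e-06), and by 1.17 (adjusted p = 2.81e-06) on its other probe set. The named ARF23 probe set is of a kind (x) whose probes can match other transcripts. In PB1 roots ARF23 was higher by 0.80 (adjusted p = 0.0013), under 2-fold, with +Pi values of -0.83, -0.66 and -0.06. ARF24 had -1.68, -1.92 and -2.12 at +Pi and -0.98, -0.82 and -0.89 at −Pi in Dular roots, a rise of 1.01 (SE 0.28, adjusted p = 0.0143) against 0.11 (adjusted p = 0.82) in PB1 roots. The ARF24 call was lost without Dular root +Pi replicate 3 (0.90, adjusted p = 0.0605) and, by the 2-fold limit, without −Pi replicate 2 (0.97) or after quantile normalization (0.81).

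ARF10, ARF18 and ARF22 are targets of the microRNA miR160. ARF10 was higher at −Pi by 0.99 (adjusted p = 0.00033) in Dular roots and by 0.94 (adjusted p = 0.00085) in PB1 roots, just under 2-fold in both. ARF22 was higher by 0.78 in Dular roots (adjusted p = 9.6e-06), from -0.13, -0.10 and 0.01 to 0.74, 0.69 and 0.67, and by 0.12 (adjusted p = 0.35) in PB1 roots. ARF18 changed by 0.18 (adjusted p = 0.292) in Dular roots and was lower by -0.30 (adjusted p = 0.0496) in PB1 roots, where it was the single ARF lower by the adjusted p. ARF3, of the ETTIN type, was higher by 0.91 in Dular roots and 0.99 in PB1 roots (adjusted p = 0.0027 and 0.0019). Several rice ARF genes carry more than 1 number in the gene table, so that OsARF16 is listed for the gene called ARF1 here and OsARF8 for ARF12. ARF12 changed by 0.69 (adjusted p = 0.095) and ARF16 by 0.20 (adjusted p = 0.57) in Dular roots, and neither was called in any of the 4 Pi comparisons. The ARF with the smallest mean response was ARF13, whose values all lay between -0.03 and 0.02, so that its probe set carried no variation to test.

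Most Aux/IAA repressors did not pass the test for Pi, and in roots those that passed went both ways. In Dular roots, 23 of 34 probe sets were above 0, with a median of 0.16, and 2 rose (5.88%, against 4.12% of all probe sets) and 1 fell (2.94%, against 3.44%). In PB1 roots 18 of 34 were above 0, with a median of 0.01 that turned to -0.01 when arrays were centred on their median, and none rose (2.55% of all) and 1 fell (2.94%, against 2.25%). In Dular shoots 23 of 34 were above 0, with a median of 0.07. By the adjusted p, 3 were higher and none lower there (3.93% and 3.81% of all). In PB1 shoots 25 of 34 were above 0, with a median of 0.09. By the adjusted p, 1 was higher and none lower there (1.77% and 2.93% of all). IAA3 had values of -1.22, -1.10 and -0.87 at +Pi and -0.03, 0.41 and 0.04 at −Pi in Dular roots, a rise of 1.20 (SE 0.20, adjusted p = 0.000299). In PB1 roots it had 0.03, -0.28 and 0.48 at +Pi and -0.23, -0.11 and -0.33 at −Pi, a change of -0.30. The Dular roots at +Pi thus stood below the other root groups. At −Pi the Dular roots lay above the PB1 roots without overlap, but that difference of 0.36 was not called (SE 0.20, adjusted p = 0.253). The other probe set of IAA3 was higher at −Pi than at +Pi by 0.27 in Dular roots (adjusted p = 0.017), under 2-fold. Between the genotypes in roots at −Pi it gave -0.02 (adjusted p = 0.92).

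IAA2 went the opposite way. Its values in Dular roots were 1.03, 0.92 and 1.26 at +Pi and -0.16, -0.27 and -0.22 at −Pi, a fall of 1.28 (SE 0.20, 2.43-fold, adjusted p = 9.52e-05). In PB1 roots, at 0.60, 0.48 and 0.46 against 0.53, 0.49 and 0.15, the Pi levels overlapped. IAA8 rose by 1.57 in Dular roots (SE 0.39, adjusted p = 0.00809), from -1.40, -2.87 and -2.60 to -1.02, -0.69 and -0.46. This call was lost without Dular root +Pi replicate 2 (adjusted p = 0.0532) or with root arrays alone (adjusted p = 0.0611), and the other probe set of IAA8 was flat (-0.01). IAA25 fell by 1.10 in PB1 roots (SE 0.20, adjusted p = 0.000907), from -0.67, -0.01 and -0.14 to -1.33, -1.27 and -1.54. Without PB1 root +Pi replicate 2 this was -0.97, under 2-fold. IAA23, which in rice maintains the quiescent centre of the root tip, rose by 1.47 in Dular shoots (SE 0.29, adjusted p = 0.00421), from -1.56, -2.63 and -2.96 to -0.63, -1.54 and -0.55. The call was lost with shoot arrays alone (adjusted p = 0.0778). Of its other 2 probe sets, one was higher by 0.79 (adjusted p = 0.0473) and the other changed by 0.07.

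The Aux/IAA gene with the largest mean response, IAA9, was not called in any of the 4 Pi comparisons, and its arrays spread widely, for example -2.60, -0.09 and -1.97 in PB1 shoots at −Pi against -3.39, -2.48 and -3.76 at +Pi. IAA17 had the smallest, with all 24 values between -0.26 and 0.24.

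Of the GH3 genes, GH3.5 and GH3.8 rose in PB1 roots. GH3.5, also named JAR1, joins jasmonate and not auxin to isoleucine. Its values in PB1 roots were -0.73, -1.15 and -1.19 at +Pi and 0.35, 0.52 and -0.23 at −Pi, a rise of 1.24 (SE 0.19, 2.36-fold, adjusted p = 0.000192). In Dular roots they were -0.63, -0.59 and -0.95 at +Pi and -0.20, -0.48 and -0.73 at −Pi, which overlap, with a change of 0.26 (adjusted p = 0.474). GH3.8, an enzyme that conjugates auxin to amino acids, had 2.54, 2.50 and 2.24 at +Pi and 3.90, 4.01 and 3.88 at −Pi in PB1 roots. It rose there by 1.51 (SE 0.48, adjusted p = 0.0413), and every fit without 1 of the 6 arrays lost the call (adjusted p 0.0743 to 0.121), as did quantile normalization (adjusted p = 0.152). In Dular roots, 0.25, 0.14 and -0.14 at +Pi and 1.62, 1.23 and 1.06 at −Pi did not overlap either, but the change of 1.22 (SE 0.48) was not called (adjusted p = 0.0971). Its shoot arrays spread more than its root arrays, from -4.48 to -2.28 in Dular shoots at −Pi, and enter the same SE. GH3.11 was flat, with values between -0.04 and 0.05.

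SAUR39, which in rice limits auxin synthesis and transport, had the strongest fall of all auxin genes. In PB1 roots its values were -1.61, -1.52 and -1.48 at +Pi and -6.17, -6.94 and -6.81 at −Pi. In Dular roots they were 1.64, 1.81 and 1.40 at +Pi and -0.04, 0.71 and 0.52 at −Pi. The arrays of the Pi levels did not overlap in either genotype, and the PB1 values at −Pi were the lowest of the 24. SAUR39 fell by 5.11 in PB1 roots (SE 0.37, 34.4-fold, adjusted p = 4.48e-08) and by 1.22 in Dular roots (SE 0.37, 2.33-fold, adjusted p = 0.0248). The smaller fall in Dular roots was lost without any 1 of +Pi replicates 1 and 2 and −Pi replicate 1 (adjusted p 0.0623 to 0.125). In PB1 shoots it fell by 1.39 (SE 0.37, adjusted p = 0.0359), from 0.04, -0.04 and -1.26 to -2.20, -1.70 and -1.54. That call was lost without any 1 of PB1 shoot +Pi replicates 1 and 2 and −Pi replicates 1 and 2 (adjusted p 0.0752 to 0.157) and with shoot arrays alone (adjusted p = 0.204). In Dular shoots it changed by -0.41 (adjusted p = 0.429), and the arrays overlapped.

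**Figure D3:**
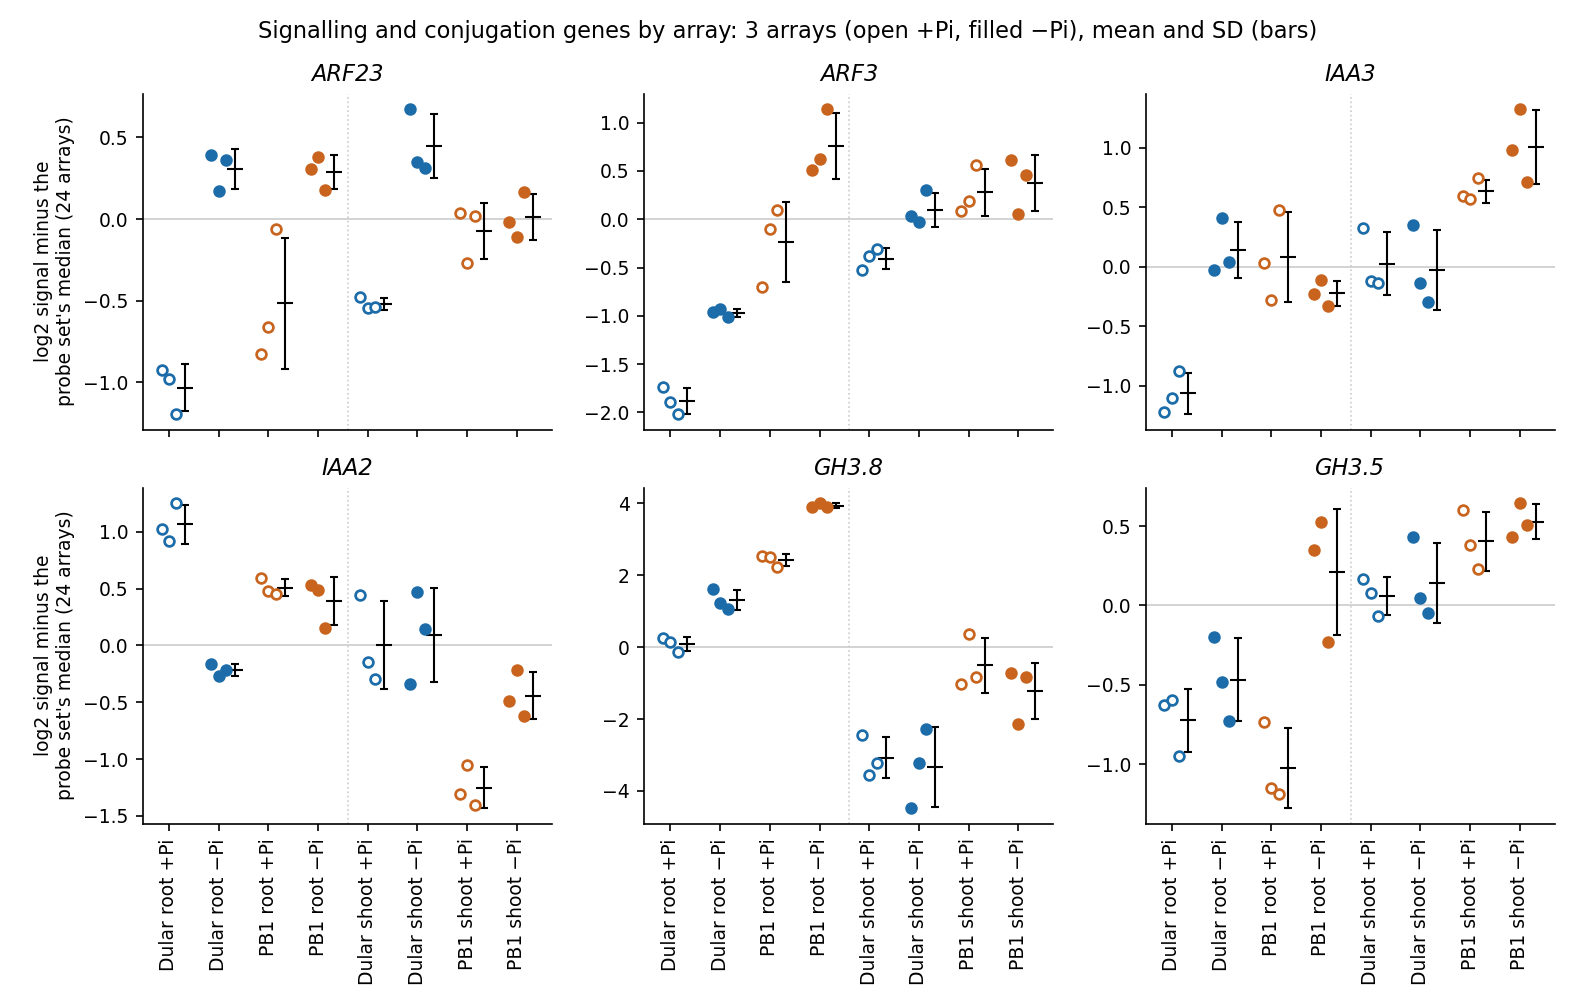
Log2 signal of 2 ARF, 2 Aux/IAA and 2 GH3 genes, relative to the probe set's median, on the 3 arrays of each group (open circles +Pi, filled circles −Pi, blue Dular, orange PB1; bars are the mean and SD). IAA3 and IAA2 moved in opposite directions in Dular roots, by 1.20 and -1.28, and GH3.8 was higher in PB1 than in Dular in roots and shoots.

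The difference between the Pi responses of the genotypes was tested directly. In roots, 7 of 72 probe sets responded more positively in Dular than in PB1 (9.72%, against 6.45% of all) and 2 less (2.78%, against 5.24%). SAUR39 differed by 3.88 (SE 0.52, adjusted p = 6.8e-05), since it fell less in Dular. IAA3 differed by 1.50 (SE 0.29, adjusted p = 0.00211) on the named probe set and by 0.21 (adjusted p = 0.171) on the other. IAA25 differed by 1.27 (SE 0.28, adjusted p = 0.0067). Of the ARF genes, ARF22 (0.65, adjusted p = 0.00375), ARF9 (0.53, adjusted p = 0.00303), ARF18 (0.48, adjusted p = 0.0356) and 1 probe set of ARF23 (0.67, adjusted p = 0.0246) differed, each by less than 2-fold. The named probe set of ARF23 gave 0.54 (adjusted p = 0.111) and was not called. The negative differences were those of IAA2 (-1.17, SE 0.28, adjusted p = 0.00987) and GH3.5 (-0.98, SE 0.27, adjusted p = 0.024). The GH3.5 call was lost with root arrays alone (adjusted p = 0.0752) and without any 1 of 7 of the 12 arrays, all but Dular +Pi replicate 3, Dular −Pi replicates 1 and 2, PB1 +Pi replicate 1 and PB1 −Pi replicate 3 (adjusted p 0.0533 to 0.0687).

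**Figure D4:**
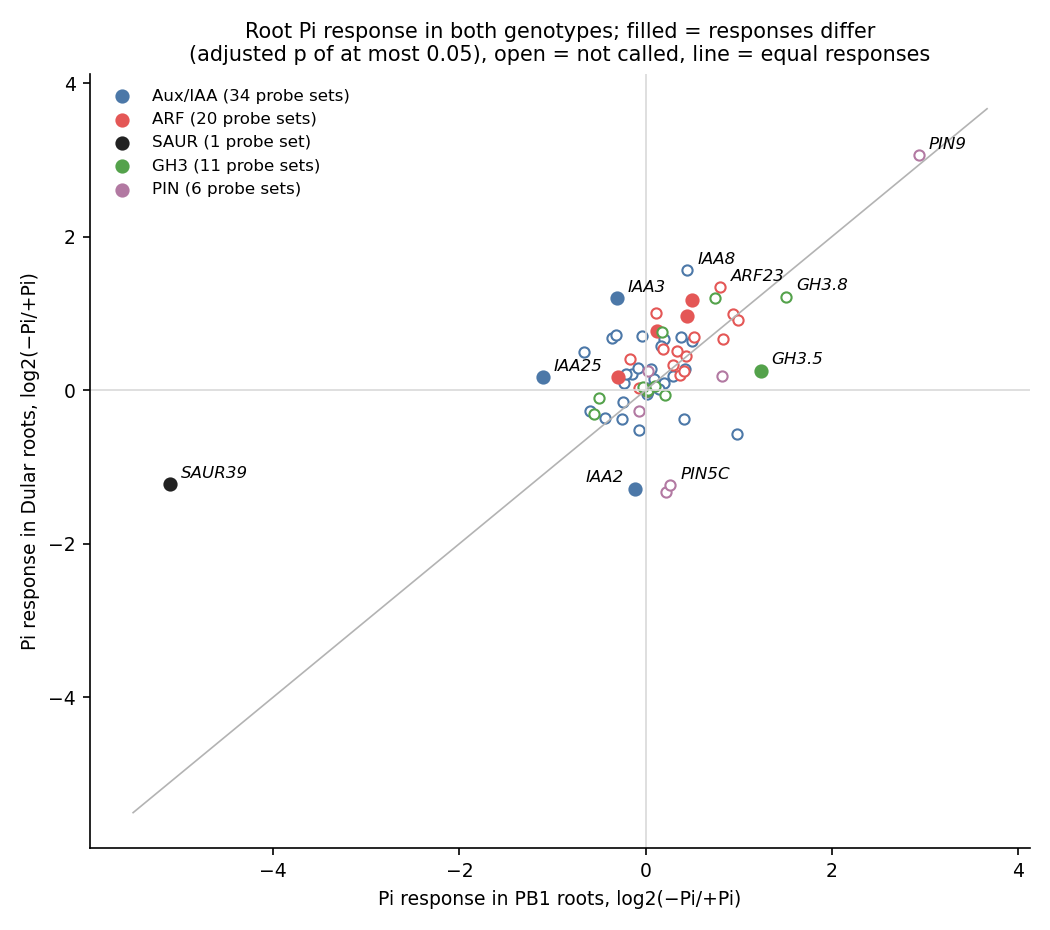
Pi response of the 72 auxin probe sets in PB1 roots (x axis) and Dular roots (y axis), both as log2(−Pi/+Pi). Filled points have a response for which the difference between the genotypes was called, and the line marks equal responses. PIN9 lies near the line, and SAUR39 lies at -5.11 in PB1 and -1.22 in Dular.

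In shoots, 3 of 72 probe sets differed in response, all more positive in Dular (4.17%, against 2.06% of all), and none the other way (1.22% of all). These were IAA25 (1.10, adjusted p = 0.0424), ARF23 (0.88, adjusted p = 0.0333) and ARF22 (0.59, adjusted p = 0.0231). The other probe set of ARF23, the one called in roots, gave 0.30 (adjusted p = 0.57) and was not called. No ARF23 probe set was thus called in both tissues. IAA25 and ARF22 thus differed in the same direction in roots and in shoots. The root and shoot tests do not share arrays, but they use the same spread per probe set and so are not independent. The 3 shoot calls were lost with shoot arrays alone (adjusted p = 0.0733, 0.0532 and 0.19), and without any 1 of 9, 7 and 6 of the 12 arrays (adjusted p 0.0571 to 0.0991, 0.0519 to 0.0828 and 0.0524 to 0.0618). The arrays that kept the IAA25 call when left out were Dular +Pi replicate 2, Dular −Pi replicate 2 and PB1 −Pi replicate 1. Those that ended the ARF23 call were Dular +Pi replicates 1, 2 and 3, Dular −Pi replicate 1, PB1 +Pi replicates 1 and 3 and PB1 −Pi replicate 2. For ARF22 they were Dular +Pi replicate 3, Dular −Pi replicates 1 and 3, PB1 +Pi replicate 2 and PB1 −Pi replicates 2 and 3.

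Beside these root results, other signals moved in Dular roots as well. The green leaf markers fell at −Pi for 8 of 11 probe sets in Dular roots, with a median of -3.40 and a range of -4.86 to 0.25, and for none in PB1 roots (median -0.38). Of the root markers, 1 rose and 1 fell in the roots of each genotype. The part of these shifts in the auxin results was not tested.

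Between the genotypes at one Pi level, PIN3A, SAUR39, GH3.1, PIN5A and GH3.8 were the auxin genes furthest apart in roots. From 1 comparison of the genotypes alone, a difference in transcript and a difference in the sequence under the probes cannot be told apart. In roots at +Pi, 4 of 72 probe sets were higher in Dular (5.56%, against 5.5% of all) and 15 lower (20.8%, against 7.69%). In roots at −Pi, 3 were higher (4.17%, against 6.67%) and 8 lower (11.1%, against 7.6%). All 8 probe sets lower in Dular roots at −Pi were also among the 15 lower at +Pi (53.3% of them). They belong to ARF3, ARF10, GH3.1, GH3.8, IAA20, PIN3A and PIN5A. The comparisons do not share arrays, but they use the same spread per probe set and so are not independent. The same overlap over all probe sets was not counted. On the root arrays the spiked control BioB was also higher in Dular than in PB1, by a median of 4.98 at +Pi and 4.77 at −Pi, whereas the other spiked controls BioC, BioD and Cre differed by at most 0.53. Tissue markers differed between the roots of the genotypes too. Of 11 green leaf marker probe sets, 5 were lower and 1 higher in Dular at +Pi (median 0.05) and 6 were lower at −Pi (median -2.42). Of 10 root marker probe sets, 4 were higher and 1 lower at +Pi (range -4.19 to 6.25), and 5 were higher and 2 lower at −Pi (range -11.2 to 3.27). The part of these signals in the root differences was not tested.

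PIN3A had values of -4.95, -4.81 and -5.82 in Dular roots at +Pi and of -5.03, -4.18 and -5.81 at −Pi. In PB1 roots it had -2.53, -1.21 and -1.05 at +Pi and -1.20, -1.02 and -0.13 at −Pi, all above every Dular root array. The difference of -3.60 at +Pi (SE 0.46, 12.1-fold, adjusted p = 8.54e-06) and of -4.23 at −Pi (SE 0.46, 18.7-fold, adjusted p = 1.13e-06) held on the other probe set, with -1.89 and -3.43. The named probe set is of a kind (x) whose probes can match other transcripts. PIN5A was likewise lower in Dular roots, by -2.57 (adjusted p = 1.98e-07) at +Pi and -2.76 (adjusted p = 6.99e-08) at −Pi, with 6 Dular values between -3.19 and -2.38 and 6 PB1 values between -0.22 and 0.00. On the same probe sets, the shoots of the genotypes differed less. PIN3A differed there by 0.02 at +Pi and -1.17 at −Pi, neither called. Its other probe set gave -0.06 and -1.69, the latter called (adjusted p = 0.011). PIN5A differed in shoots by -0.90 at +Pi and 0.23 at −Pi, neither called. The part of probe sequence in the root differences was not tested. PIN5C was higher in Dular at +Pi, by 1.84 in roots (adjusted p = 0.00124) and 2.13 in shoots (adjusted p = 0.000507).

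SAUR39 was higher in Dular in all 4 comparisons. It differed by 3.16 in roots at +Pi (SE 0.37, adjusted p = 2.83e-06), 7.04 in roots at −Pi (SE 0.37, adjusted p = 9.25e-11), 1.75 in shoots at +Pi (SE 0.37, adjusted p = 0.00145) and 2.73 in shoots at −Pi (SE 0.37, adjusted p = 1.49e-05). GH3.8 was lower in Dular in all 4, by -2.34, -2.63, -2.58 and -2.10 in the same order (adjusted p of 0.000867, 0.000296, 0.00052 and 0.00272), although the last was not called with shoot arrays alone (adjusted p = 0.0505). GH3.1, which also conjugates auxin, was lower in Dular roots by -2.62 (adjusted p = 0.000446) at +Pi and -2.15 (adjusted p = 0.00235) at −Pi. Its PB1 root values at +Pi were 0.04, 2.12 and 2.30, so that replicate 1 lay far from the others, whereas the 3 Dular values lay between -1.25 and -1.05.

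One probe set of GH3.7 was higher in Dular in all 4 comparisons, by 1.17 to 1.45, with SDs of at most 0.13, and the other 2 probe sets of the gene were not called. IAA18 was higher in Dular roots at +Pi by 1.62 (adjusted p = 3.88e-05) and in shoots by 1.34 at +Pi and 1.00 at −Pi. The last of these fell under 2-fold without Dular shoot −Pi replicate 3 (0.77) or PB1 shoot −Pi replicate 3 (0.79). IAA20 was lower in Dular roots at +Pi by -1.78 (adjusted p = 0.00412), with 0.75, 1.24 and 0.43 against 2.72, 2.37 and 2.68 in PB1. IAA8 was higher in Dular roots at −Pi by 1.21 (adjusted p = 0.0258), a call lost without any 1 of Dular −Pi replicates 2 and 3 and PB1 −Pi replicates 1 and 3 (adjusted p 0.0646 to 0.115) or with root arrays alone (adjusted p = 0.115).

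The ARF genes were mostly lower in Dular roots. At +Pi, 16 of 20 ARF probe sets were below 0, with a median of -0.58 (0.05 over all probe sets). Of the 20, 5 were called lower (7.69% of all probe sets) and none higher (5.5% of all). How many of all probe sets lay below 0 was not counted. ARF3 had -1.74, -1.89 and -2.02 in Dular against -0.70, -0.10 and 0.09 in PB1, a difference of -1.65 (SE 0.20, adjusted p = 4.58e-06). ARF10, ARF2, ARF24 and ARF12 were lower by -1.20, -1.16, -1.11 and -1.06. The other probe set of ARF2 gave -0.40 (adjusted p = 0.052) and was not called, and the arrays of the genotypes overlapped for ARF24 and ARF12. For these the lowest PB1 array was +Pi replicate 1, at -1.74 for ARF24 and -1.22 for ARF12, and the same array had the lowest PB1 value at +Pi for ARF3 and ARF23. At −Pi the ARF median was -0.33. ARF3 (-1.73, adjusted p = 2.19e-06) and ARF10 (-1.15, adjusted p = 3.57e-05) were called lower, as were 7.6% of all probe sets. The ARF medians were negative under median centring and quantile normalization too, with -0.63 and -0.50 at +Pi. In shoots at +Pi, 15 of 20 ARF probe sets were below 0, with a median of -0.32. In shoots at −Pi, 10 of 20 were below 0, with a median of -0.03.

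In shoots at +Pi, 6 of 72 probe sets were higher in Dular (8.33%, against 4.91% of all) and 6 lower (8.33%, against 5.35%). At −Pi, 4 were higher (5.56%, against 5.9%) and 5 lower (6.94%, against 5.49%). Besides the genes above, IAA9 was higher in Dular at +Pi by 2.2 (SE 0.50, adjusted p = 0.00269), with -0.91, -1.31 and -0.82 against -3.39, -2.48 and -3.76. IAA25 was higher in Dular at −Pi by 1.95 (SE 0.20, adjusted p = 7.7e-07), with 2.38, 2.02 and 2.07 against 0.54, 0.07 and 0.01. GH3.2 was lower in Dular by -2.30 at +Pi and -2.03 at −Pi (adjusted p = 0.00133 and 0.00331, the latter 0.055 with shoot arrays alone), though its Dular +Pi arrays ranged from -4.99 to -2.13. ARF9 was lower by -1.10 at +Pi and -1.17 at −Pi (adjusted p = 4.39e-09 and 1.82e-09), with all 6 Dular values between -1.36 and -0.49 and all 6 PB1 values between -0.29 and 0.77. IAA23 was lower at +Pi by -1.66 (adjusted p = 0.000334), and its other probe sets gave -1.07, which was called, and -0.01. IAA31 (-1.01, at +Pi) and IAA3 (-1.03, at −Pi) passed 2-fold narrowly. IAA31 was under it without Dular shoot +Pi replicate 1 or PB1 shoot +Pi replicates 1 or 2 (-0.98 to -0.92), and IAA3 without Dular shoot −Pi replicates 2 or 3 or PB1 shoot −Pi replicate 2 (-0.98 to -0.87). The other probe set of IAA3 had the opposite sign (0.17, not called).

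Between root and shoot, the share of auxin probe sets called was above that of all probe sets in each direction. Here and in the other comparisons that required 2-fold, all probe sets include the 24412 flat ones of 57258, against 4 of the 72. Flat ones cannot pass 2-fold. The share among probe sets that vary is therefore above the one given, and any excess of auxin probe sets is smaller. At +Pi, 17 of 72 probe sets were higher in root in Dular (23.6%, against 7.35% of all) and 16 lower (22.2%, against 8.84%). In PB1 at +Pi, 18 were higher in root (25%, against 8.26%) and 12 lower (16.7%, against 7.82%). At −Pi, 13 were higher in root in Dular (18.1%, against 8.45%) and 12 lower (16.7%, against 8.31%), and in PB1 17 were higher (23.6%, against 9.12%) and 13 lower (18.1%, against 8.2%). Of those higher in root at +Pi, 15 were shared by the genotypes, 88.2% of the Dular list and 83.3% of the PB1 list. Of those lower, 10 were shared, 62.5% and 83.3% of the lists. The same overlap over all probe sets was not counted, here or for the calls made in all 4 comparisons. These overlaps thus cannot be read as particular to auxin genes. The comparisons also use the same spread per probe set and so are not independent.

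In all 4 comparisons, 11 probe sets were called higher in root, those of ARF1, ARF16, GH3.2, GH3.6, GH3.8, IAA12, IAA13, IAA20, IAA31, PIN2 and PIN9. For IAA31 this held on 1 of its 2 probe sets, and the other was flat, at 0.04 in Dular and -0.01 in PB1 at +Pi and at -0.00 and -0.08 at −Pi. ARF1 had 12 root values between 1.44 and 2.30 and 12 shoot values between -2.70 and -1.44, with differences of 3.80 in Dular and 3.78 in PB1 at +Pi. GH3.6 had differences of 3.96 and 4.28, and GH3.2 of 5.62 and 3.31. IAA13, which in rice acts in lateral root initiation, was higher in root by 2.50 in Dular and 1.15 in PB1 at +Pi. IAA9 was higher in PB1 roots by 4.01 and in Dular roots by 2.18, and IAA20 by 3.60 and 2.56.

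On the other side, 7 probe sets, those of ARF15, IAA8, IAA10, IAA14, IAA25 and both of PIN3A, were called lower in root in all 4 comparisons. PIN3A was lower in root by -5.91 in Dular and -2.29 in PB1 at +Pi. IAA14 was lower by -4.65 and -4.25, but its PB1 root values at +Pi were -4.71, -2.06 and -0.77 and at −Pi -3.55, -2.96 and 0.13, a spread of over 3 on the log2 scale. IAA8 was lower by -3.30 and -3.25 on its varying probe set and did not follow on the flat one (0.04 in Dular). IAA25 was lower by -2.42 in Dular and -1.09 in PB1, PIN5A by -2.62 in Dular at +Pi, ARF15, of the ETTIN type, by -1.65 in PB1 and IAA10 by -1.55 in PB1.

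**Figure D5:**
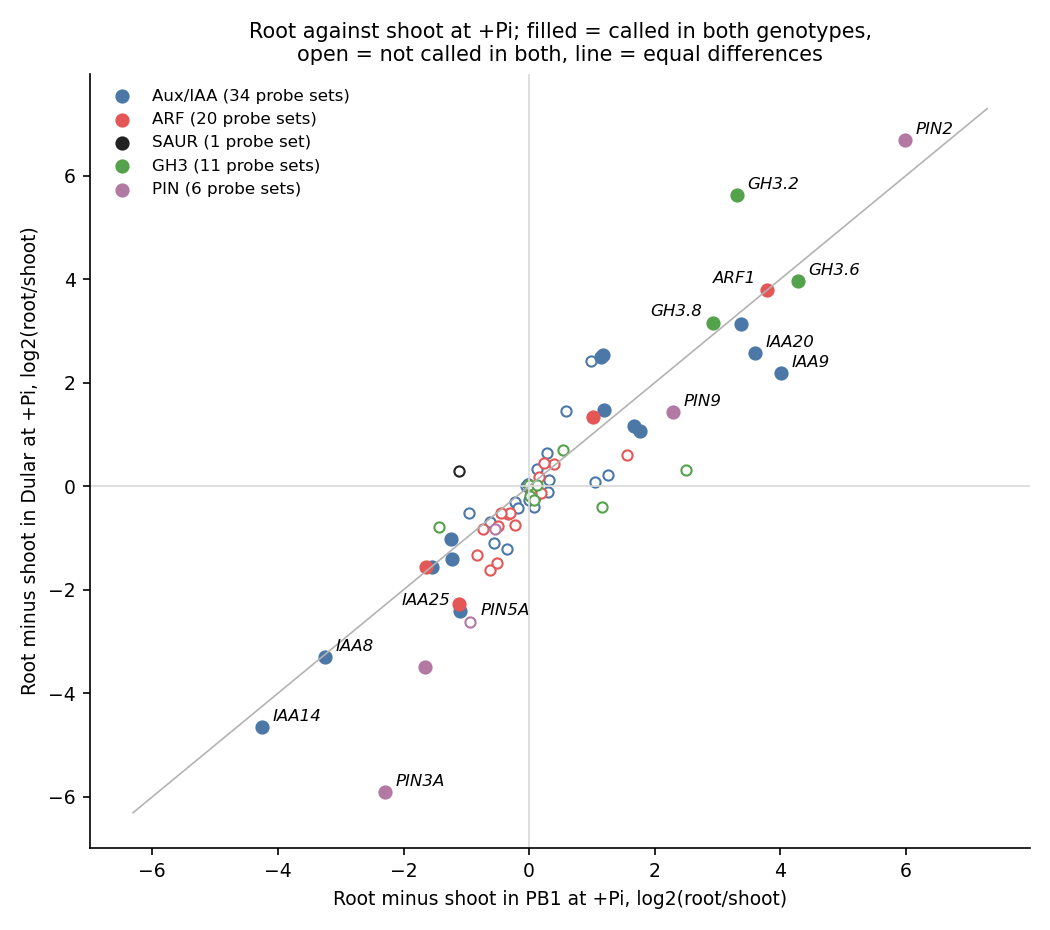
Root minus shoot difference at +Pi, log2(root/shoot), of the 72 auxin probe sets in PB1 (x axis) and Dular (y axis). Filled points were called in the same direction in both genotypes, and the line marks equal differences. PIN2 lies at 5.99 and 6.69, and PIN3A at -2.29 and -5.91.

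Among other auxin pathway genes (synthesis, corepressors, transport regulators, catabolism and root development), 9 genes were measured by 11 probe sets. In Dular roots 1 of 11 rose (4.12% of all probe sets) and none fell (3.44%). In PB1 roots none was called (2.55% of all rose and 2.25% fell). In Dular shoots none rose (1.16% of all) and 1 fell (1.18%), and in PB1 shoots none was called (0.603% and 0.564%). With 11 probe sets, 1 call cannot set this list apart from all probe sets. The gene that rose was WOX11, a homeobox factor that promotes crown root growth in rice. Its values in Dular roots were 0.15, 0.83 and 1.27 at +Pi and 3.73, 3.51 and 2.99 at −Pi, a rise of 2.66 (SE 0.36, 6.31-fold, adjusted p = 2.34e-05). In PB1 roots they were 3.27, 3.59 and 4.50 at +Pi and 4.68, 4.39 and 3.94 at −Pi, which overlap, with a change of 0.55 (adjusted p = 0.26). The responses differed by 2.11 (SE 0.50, adjusted p = 0.0103), and Dular at +Pi was below PB1 by -3.03 (adjusted p = 3.22e-06). BG1, which promotes auxin transport in rice, was the gene that fell in Dular shoots, by 1.09 (adjusted p = 0.00641). DAO, a dioxygenase that oxidises auxin, was lower in Dular than in PB1 roots by -1.92 at +Pi and -2.27 at −Pi, and PID, a kinase that regulates PIN carriers, was higher by 1.13 and 1.91, without a called Pi response in either gene. TAA1 had 0.10, 0.27 and 0.10 in Dular roots at +Pi, against -0.66, -1.06 and -0.44 in PB1 roots. At −Pi it had 0.57, 0.70 and 0.72 in Dular roots, against -0.44, -0.44 and -0.53 in PB1 roots. The genotypes thus did not overlap at either Pi level. Besides WOX11, 1 of 11 probe sets differed in Pi response in roots (5.24% of all) and 1 in shoots (1.22%). Both responded less positively in Dular.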

How the data were processed

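RNA of 24 samples, 3 per group, was hybridised to Affymetrix rice arrays. The authors normalized and summarised the probe intensities by GC-RMA in GeneSpring, and the deposited table holds log2 values centred on each probe set's median over the arrays. Such values hold no level or background, so no filter on signal could be made, and the trend in variance was fitted on centred values. Of 57381 probe sets, 123 controls were left out. Genes were paired through the platform annotation and the rice gene table (22436 probe sets with 1 gene, 17905 genes). The members, the other gene lists and the rule for named genes were chosen with earlier results of these data known.

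A model with 1 mean per group was fitted in R version 4.3.3 by limma version 3.58.1 (lmFit and eBayes), with contrasts adjusted by Benjamini-Hochberg over 57258 probe sets. The prior degrees of freedom were 0.789, so the moderation was weak. The pipeline was tested on simulated data. Named genes were every PIN member, the up to 8 largest called rises and falls without overlap in each Pi comparison, the 5 largest called each way in each other comparison (root against shoot at +Pi), and the largest and smallest mean absolute response of each family. ARF2, ARF10, ARF12, ARF16, ARF18, IAA12, IAA13 and the other pathway genes are named outside this rule, after their values had been seen. Of several probe sets of a gene, the one with the widest range was named. Alternatives were other scalings, variance settings, filters and subsets of arrays, a replicate block and leaving out each array in turn. Replicate numbers did not pair the arrays. With 3 arrays per group, their number limits the precision.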

Additional observations from a re-analysis of the deposited data

Results flagged for a closer look

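The Pi response of 8 named genes differed between Dular and PB1 by a test of the difference itself (limma, a contrast of the 2 responses). In roots the response of SAUR39 was more positive in Dular by 3.88, that of IAA3 by 1.50, that of IAA25 by 1.27, that of ARF22 by 0.65 and that of ARF9 by 0.53. It was more negative in Dular for IAA2, with -1.17, and for GH3.5, with -0.98. In shoots it was more positive in Dular for IAA25, with 1.10, for ARF23, with 0.88, and for ARF22, with 0.59. Groups of 3 arrays were too small to be searched for single arrays far from the others.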

How the results depend on the processing

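Counts are of auxin probe sets called. Without the 2-fold limit they were 22 in place of 9 in Dular roots and 12 in place of 3 in Dular shoots, and 18 in place of 5 in PB1 roots and 5 in place of 1 in PB1 shoots. With 2-fold required, the difference in Pi response was called for 4 in place of 9 in roots and for 1 in place of 3 in shoots. With arrays of the tissue only, and with arrays of the compared groups only, 1 was called in Dular shoots and 0 in PB1 shoots, and with arrays of the tissue only 0 differed in response in shoots. Quantile normalization gave 3 in PB1 shoots and 6 for the difference in shoots, and leaving out flat probe sets gave 2 and 5. The other counts stayed within 1.5 times under the settings run, the cause of the changes was not tested, and fewer arrays leave fewer degrees of freedom.

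Leaving out 1 array at a time gave 7 to 9 in Dular roots and 2 to 4 in Dular shoots, 4 to 7 in PB1 roots and 0 to 1 in PB1 shoots, 6 to 12 and 0 to 4 for the difference in roots and shoots, 15 to 20 and 10 to 12 between genotypes in roots at +Pi and −Pi, 11 to 13 and 7 to 12 in shoots, and 31 to 33, 25 to 27, 26 to 31 and 29 to 32 between root and shoot in Dular at +Pi and −Pi and in PB1 at +Pi and −Pi. The PB1 shoot count was 0 without +Pi replicate 1 or −Pi replicate 2. The difference in shoots was 0 without Dular shoot +Pi replicate 3 or −Pi replicate 1, and 1 without Dular shoot −Pi replicate 3, PB1 shoot +Pi replicates 1 or 3 or PB1 shoot −Pi replicate 2.

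Another probe set of the gene turned the sign for IAA8 in the Dular root Pi response (-0.014) and in root minus shoot in Dular at +Pi (0.041), and for IAA3 between genotypes in shoots at −Pi (0.17), none of them called. The flat probe set of IAA31 also had the opposite sign in 3 of the 4 root minus shoot comparisons (-0.015 in PB1 at +Pi, -0.0034 in Dular and -0.076 in PB1 at −Pi), not called. Arrays with the same replicate number had a mean r of deviations of 0.0203, against -0.00998 for others. Of 84 such pairs, 14 were over 0.1, and the highest r was 0.40. With a replicate block, 10 were called in Dular roots, 3 in Dular shoots, 4 in PB1 roots, 1 in PB1 shoots, 10 and 2 for the difference in roots and shoots, and GH3.8 in PB1 roots and IAA25 in the shoot difference were not called. An alternative on gene descriptions was not run, since the gene table gives none.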
